A study of Sus scrofa with 6 samples.

Results

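In mammals the miRNAs miR-424, miR-503 and miR-542, with those of the miR-450 family, are processed from hairpins that lie close together on chromosome X. The table lists 9 of their mature products among 898 miRNAs, of which 280 carry a porcine miRBase-style name. They were selected by name, as every porcine entry of miR-424, miR-503, miR-542, miR-450a, miR-450b or miR-450c on either arm of the hairpin. The cluster was singled out because some of these products were higher in black than in white skin in the same libraries, so the black and white values of its members are given as a description, with no test of that difference.

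Small RNA was sequenced from skin of the Xiang pig (Sus scrofa), a small breed kept in China. Black skin gave 3 libraries, named S03, S04 and S05, and white skin gave 3, named S02, S06 and S07, and the labels give the same tissue, breed and storage in a preservative for both. The labels give no animal, age, sex or body site, so the spread between libraries of a group may be technical. The question of the series is which miRNAs affect the making of melanin.

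In mammals this cluster is transcribed as a unit, and its hairpins are cut into products that are loaded into Argonaute proteins and repress matching mRNAs. miR-424, named miR-322 in rodents, and miR-503 carry the seed of the miR-15 and miR-107 group, whose known targets include cyclins and other drivers of the cell cycle. miR-424 is induced by low oxygen in human endothelial cells, and miR-424 and miR-503 promote the differentiation of mouse muscle cells. miR-542-3p is known to repress the survival factor BIRC5 (survivin) in human cells, and the miR-450 products are less studied.

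Precursors of 6 of the 9 products were found in the RefSeq annotation of Sscrofa11.1. MIR450B lies at chrX:110381587-110381666, MIR450A at chrX:110381746-110381851, MIR450C at chrX:110381891-110381971 and MIR542 at chrX:110382597-110382676. The 4 precursors span 1090 bases, with gaps of 79, 39 and 625 bases. No other gene of that annotation overlaps this stretch. The nearest protein-coding genes are HPRT1, a purine salvage enzyme that ends 23684 bases before it, and PLAC1, a placental gene that starts 20580 bases after it.

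The libraries held 6454685 to 10165949 recovered miRNA reads, and values are in RPM, reads per 1000000 miRNA reads. In RPM 1 read is worth 0.0984 to 0.155, and a count of 0 allows up to 3 reads, or 0.295 to 0.465 RPM. Such limits and all intervals cover counting error only. White library S02 stood apart from the others on the second principal component (-9.24, against 2.77 and 6.10 in the other white libraries, 20.3% of the variance). As RPM are shares of a fixed total, 1 abundant miRNA can move the values of the rest, and fewer cells of a type and less RNA per cell cannot be told apart in whole skin.

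The cluster is a scarce part of skin miRNA and was higher in black skin. Its 9 products together measured 64.4, 79.5 and 51.1 RPM in black libraries S03, S04 and S05, against 25.6, 27.4 and 32.1 RPM in white libraries S02, S06 and S07. All black libraries lay above all white ones. The means were 65.0 ± 14.2 RPM in black libraries and 28.4 ± 3.33 RPM in white ones (SD, n = 3 each), a 2.29-fold difference. These sums rest on 442 to 583 reads per black library and 177 to 326 per white library, and the counting intervals (95%, Clopper-Pearson) reached from 46.5 to 86.2 RPM in black libraries and from 22.1 to 35.7 RPM in white libraries.

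Of the 9 products, 5 were abundant enough to be fitted with the other miRNAs (limma on log2(RPM + 1), black minus white, 454 miRNAs), and 4 were not. No call is read from this fit for the members, since the contrast helped to choose the cluster. miR-450a and miR-424-5p reached the level that the abundance filter asks for in 3 black libraries and in 2 of the 3 white ones, and the other 3 reached it in all 6. The white libraries alone would not have kept those 2, which favours a difference towards black skin in the values below. Groups did not overlap for 4 of the 5, all higher in black skin, as against 13.4% of the 454, and the median difference of the 5 was 1.45 on the log2 scale and that of all 454 was 0.00. These values describe the products and carry no test.

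**Figure D1:**
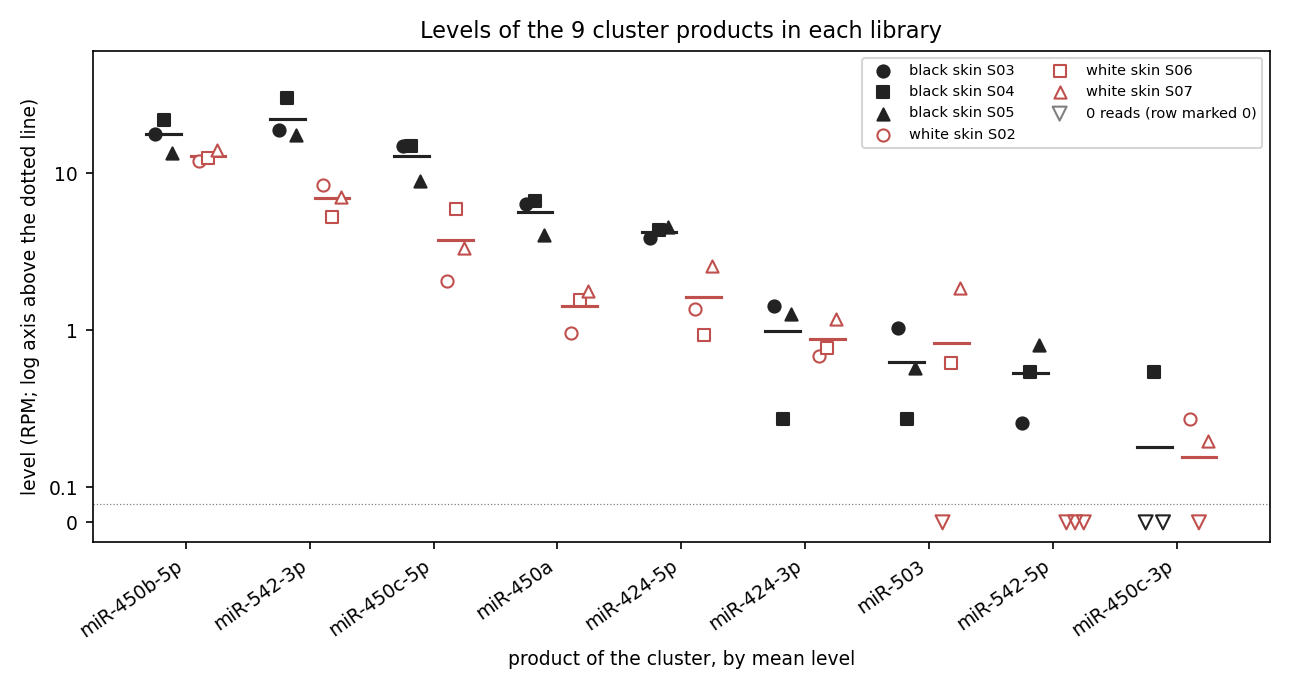
Level of each product in RPM (log axis; products with 0 reads are drawn in the row marked 0) in the 3 black libraries (filled) and 3 white libraries (open), ordered by mean level over the 6 libraries, with bars at group means. Black libraries lie above white ones for miR-542-3p, miR-450c-5p, miR-450a and miR-424-5p, miR-542-5p has reads in black libraries alone, and the groups overlap for the other 4 products.

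miR-542-3p led the cluster in black skin. Its level was 18.7, 30.1 and 17.6 RPM in black libraries S03, S04 and S05, against 8.36, 5.27 and 7.08 RPM in white libraries S02, S06 and S07. The lowest black library lay well above the highest white one. The means were 22.1 ± 6.95 RPM in black libraries and 6.90 ± 1.55 RPM in white ones (SD, n = 3 each), a 3.21-fold difference, and the fitted log2 difference was 1.53 with a standard error of 0.33. The spread between the black libraries was 4.17 times the standard deviation that counting alone gives, with S04 the high one.

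Its opposite arm miR-542-5p was seen in black skin and not in white skin. It had 2, 4 and 7 reads in black libraries S03, S04 and S05, and 0 reads in white libraries S02, S06 and S07. The 2 reads of S03, 0.258 RPM, lie under the 0.295 to 0.465 RPM that a count of 0 allows in the white libraries, so that library cannot be placed above them. Over the groups that is 13 reads in black skin, 4.37-fold the level of the 3 reads that a count of 0 allows in white skin. That fold takes the 13 reads as exact, so it is not a lower limit. miR-542-3p held 97.6% of the 531 reads of the hairpin in black skin (95% Clopper-Pearson interval 95.8 to 98.7%) and 100% of the 167 reads in white skin (97.8 to 100%), intervals that overlap.

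miR-450c-5p and miR-450a, from the neighbouring hairpins of the miR-450 family, were also higher in black skin. miR-450c-5p measured 14.98, 14.9 and 8.90 RPM in black libraries S03, S04 and S05, against 2.05, 5.89 and 3.34 RPM in white libraries S02, S06 and S07. The groups did not overlap, and both were uneven, with S05 the low black library and S02 the low white one. Means were 12.9 ± 3.47 RPM in black libraries and 3.76 ± 1.95 RPM in white ones (SD, n = 3 each), 3.43-fold apart, with a fitted difference of 1.59 (standard error 0.38). Without S02 that difference was 1.31.

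miR-450a measured 6.33, 6.68 and 4.05 RPM in black libraries S03, S04 and S05, against 0.959, 1.55 and 1.77 RPM in white libraries S02, S06 and S07. The groups did not overlap. Means were 5.69 ± 1.43 RPM in black libraries and 1.43 ± 0.420 RPM in white ones (SD, n = 3 each). The fold of these means, 3.99, was the highest of the fitted products, while the fitted difference on the log2(RPM + 1) scale was 1.45 (standard error 0.30), since the added 1 weighs on a miRNA with 7 to 18 reads per white library. The reads themselves, 133 in black and 35 in white skin, gave a ratio of 3.83 (95% counting interval 2.62 to 5.73).

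miR-450b-5p, the most abundant product on average, differed least among the fitted ones. In human eye surface epithelium it is known to act on PAX6. It measured 17.8, 21.8 and 13.4 RPM in black libraries S03, S04 and S05, against 11.9, 12.4 and 14.1 RPM in white libraries S02, S06 and S07. Black library S05 fell inside the white range. The means were 17.7 ± 4.20 RPM in black libraries and 12.8 ± 1.13 RPM in white ones (SD, n = 3 each), 1.38-fold apart, with a fitted difference of 0.42 (standard error 0.29). In white skin its spread was 0.87 times that of counting alone.

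The third hairpin of that family gave little of its opposite arm. miR-450c-3p had 0, 4 and 0 reads in black libraries S03, S04 and S05, and 2, 0 and 2 reads in white libraries S02, S06 and S07. Both groups held 4 reads in all, so no difference was detectable at this depth.

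**Figure D2:**
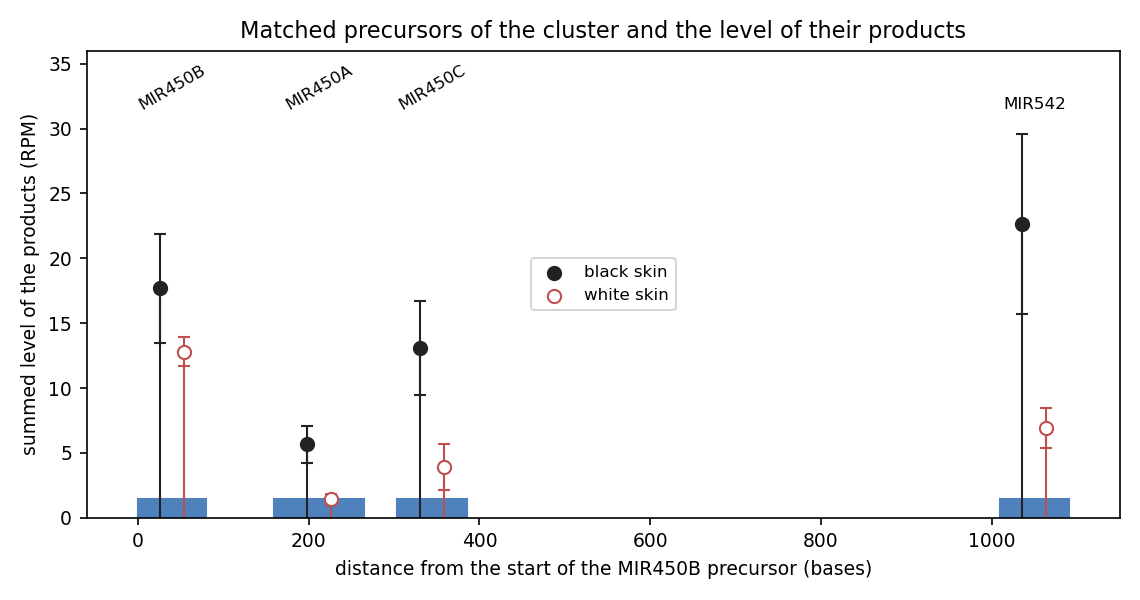
Summed level in RPM of the products of each matched precursor (mean and SD of 3 black libraries, filled, and 3 white libraries, open) against distance in bases from the start of MIR450B, with precursors as blue boxes. Along 1090 bases MIR542 products average 22.7 RPM in black libraries and 6.90 RPM in white ones, while MIR450B, at the other end, gives 17.7 RPM in black libraries and 12.8 RPM in white libraries.

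miR-424-5p and miR-503, of the miR-15 and miR-107 seed group, were scarcer than miR-450b-5p, miR-542-3p and miR-450c-5p in each library. miR-424-5p measured 3.87, 4.36 and 4.51 RPM in black libraries S03, S04 and S05, against 1.37, 0.930 and 2.56 RPM in white libraries S02, S06 and S07. The black libraries were close together and lay above all white ones, of which S07 was the highest. Means were 4.25 ± 0.334 RPM in black libraries and 1.62 ± 0.842 RPM in white ones (SD, n = 3 each), 2.62-fold apart, with a fitted difference of 1.05 (standard error 0.30).

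The opposite arm, miR-424-3p, measured 1.42, 0.273 and 1.27 RPM in black libraries S03, S04 and S05, against 0.685, 0.775 and 1.18 RPM in white libraries S02, S06 and S07. The white range lay inside the black one. With 24 reads in black and 22 in white skin, the ratio was 1.10 (95% counting interval 0.591 to 2.06).

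miR-503 had 8, 2 and 5 reads in black libraries S03, S04 and S05, against 0, 4 and 19 reads in white libraries S02, S06 and S07. Both the highest and the lowest library were white. The ratio of black to white reads was 0.658 (95% counting interval 0.319 to 1.32). S07 held 19 of the 23 white reads, and without it the ratio was 2.17 (95% counting interval 0.693 to 8.999), so the direction rests on that library. The ratios without each of the other libraries were 0.456 to 0.825.

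The order of the products by level was compared within libraries, without regard to skin colour. As the order was taken from the same 6 libraries, the pairs and their directions were set by these data. The order by mean RPM over the 6 libraries was miR-450b-5p (15.2 ± 3.84), miR-542-3p (14.5 ± 9.49), miR-450c-5p (8.34 ± 5.61), miR-450a (3.56 ± 2.52), miR-424-5p (2.93 ± 1.55), miR-424-3p (0.934 ± 0.433), miR-503 (0.729 ± 0.658), miR-542-5p (0.269 ± 0.342) and miR-450c-3p (0.169 ± 0.219), with SDs over both groups (n = 6). The first 3 products were the 3 highest in each of the 6 libraries. Of the 8 pairs of neighbours in this order, 2 kept 1 direction in 6 of 6 libraries. The first pair split by skin colour, with miR-542-3p higher in all 3 black libraries and miR-450b-5p higher in all 3 white ones. miR-450c-5p exceeded miR-450a by 0.98 ± 0.30 and miR-424-5p exceeded miR-424-3p by 0.95 ± 0.68 on the log2(RPM + 1) scale (SD, n = 6, two-sided exact sign-flip permutation p = 0.0312 for each, the smallest that 6 libraries allow). Adjusted over the 8 pairs none passed (Benjamini-Hochberg p = 0.125 for both, exact permutation). With that smallest p, any pair could pass only if most of the pairs reached it. The other 6 pairs of neighbours had exact permutation p from 0.0625 to 0.750 (n = 6). The lowest was that of miR-542-3p, which exceeded miR-450c-5p by 0.76 ± 0.60 (SD) and was higher in 5 of 6 libraries, while in the other 5 pairs the mean difference was smaller than its SD. Reads per miRNA also depend on how readily each sequence is ligated and amplified, so levels of different miRNAs are compared only roughly.

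The make-up of the cluster differed between the groups in 1 main respect. miR-450b-5p made up 27.7, 27.4 and 26.2% of the cluster's reads in black libraries S03, S04 and S05, against 46.5, 45.2 and 43.9% in white libraries S02, S06 and S07. The groups lay apart, at 27.1 ± 0.761% in black and 45.2 ± 1.33% in white skin (SD, n = 3 each). These shares rest on 442 to 583 reads of the cluster per black library and 177 to 326 per white library. No counting interval was computed for them, so the small SDs are not a measure of their precision. It was the first product in all 3 white libraries, and miR-542-3p was the first in all 3 black ones.

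**Figure D3:**
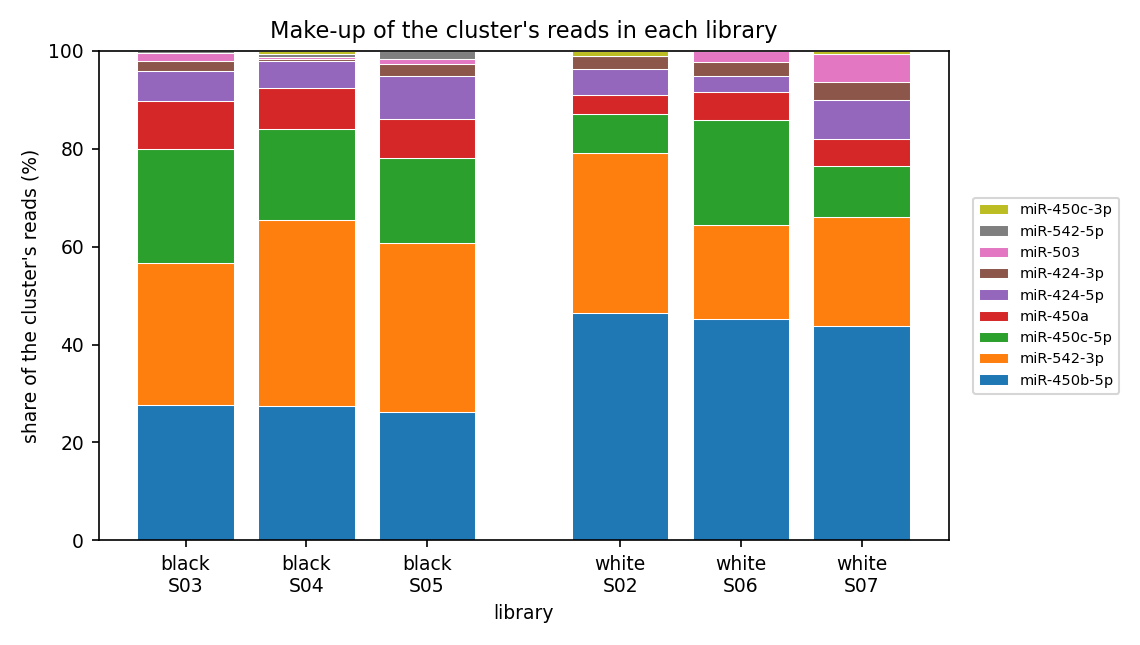
Share in percent of the cluster's reads held by each product, stacked per library, with black libraries on the left and white libraries on the right. miR-450b-5p, at the bottom, holds 26.2 to 27.7% in black and 43.9 to 46.5% in white libraries.

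The shares of the other products overlapped, except those of miR-450a, miR-424-3p and miR-542-5p. miR-542-3p held 33.8 ± 4.46% in black and 24.6 ± 7.06% in white skin, and miR-450c-5p held 19.8 ± 3.06% in black and 13.3 ± 7.17% in white skin (SD, n = 3 each), both with overlap. miR-450a held 8.71 ± 0.988% in black and 4.97 ± 1.07% in white skin (SD, n = 3 each), without overlap. miR-424-3p held 1.68 ± 1.17% in black and 3.06 ± 0.543% in white skin (SD, n = 3 each), lower in black. miR-542-5p held 0.890 ± 0.617% in black and 0% in white skin (SD, n = 3 each). These last shares rest on few reads. Without miR-450b-5p, the other 8 products summed to 47.3 ± 10.01 RPM in black libraries and 15.6 ± 2.20 RPM in white ones (SD, n = 3 each), a 3.04-fold difference.

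Arms of a hairpin were unequal in every case where both were listed. miR-542-3p held 98.1% of 698 reads of its hairpin over all libraries (95% Clopper-Pearson interval 96.8 to 99.0%), and miR-450c-5p held 98.0% of 397 reads (96.1 to 99.1%). The arms of miR-424 were less unequal. miR-424-5p held 80.8% of the reads in black skin (72.8 to 87.3%) and 65.6% in white skin (52.7 to 77.1%), intervals that overlap. Its log2 ratio to miR-424-3p, with a pseudocount of 1, was 1.01, 2.08 and 1.28 in black libraries S03, S04 and S05, against 0.49, 0.12 and 0.71 in white libraries S02, S06 and S07. The black ratios were all above the white ones, and S04, with 2 reads of miR-424-3p, was the highest. The difference of the group means, 1.01, depended on the pseudocount, at 1.51 with 0.1 and 0.28 with 10, and was 0.70 without S04.

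Correlations between the fitted products were high over both groups and mixed within them. Over the 6 libraries, Pearson's r between the log2(RPM + 1) values of 2 products was 0.71 to 0.96 for the 10 pairs (n = 6), values that share the library, its depth and the split between black and white skin. After the group means were taken out, r was -0.40 to 0.87 with a median of 0.26. The highest were miR-450a with miR-450b-5p (0.87) and with miR-450c-5p (0.78), from hairpins next to each other. Nearness did not go with a high r throughout, since miR-450c-5p with miR-542-3p, also neighbours, gave -0.22 and miR-450b-5p with miR-542-3p, at opposite ends, gave 0.66. The lowest was miR-424-5p with miR-450c-5p. These values of r rest on few libraries and are given as a description. For some products the spread within a group was under that of counting alone (0.45 times for miR-424-5p in black and 0.87 times for miR-450b-5p in white skin).

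**Figure D4:**
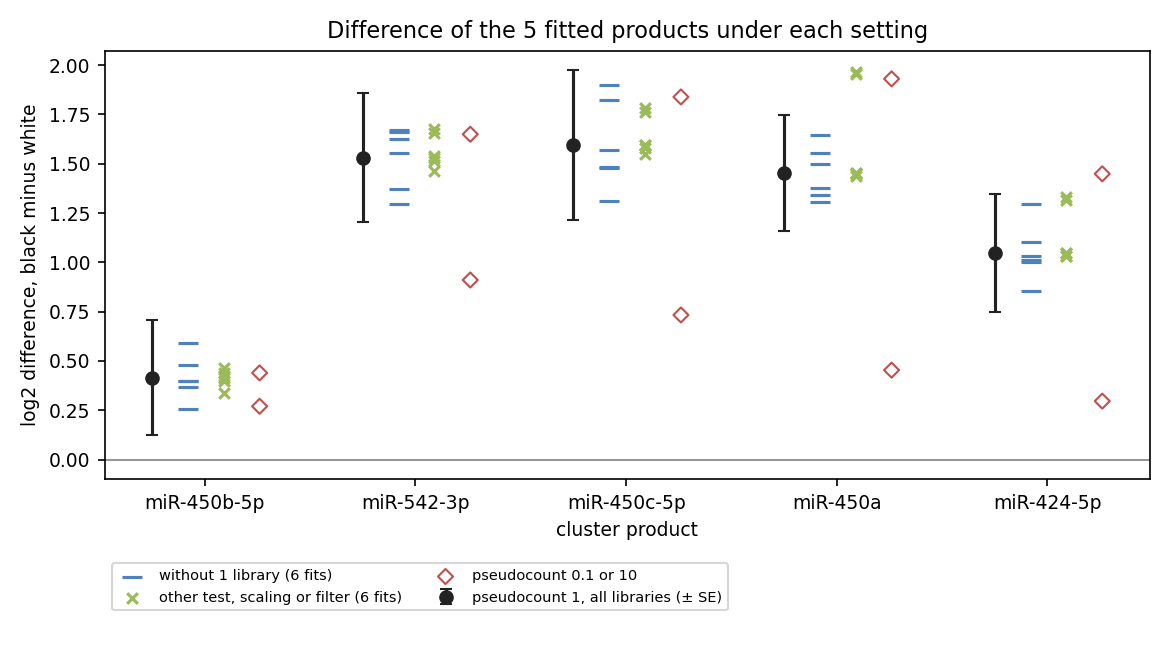
Log2 difference, black minus white, of the 5 fitted products with the main settings (circle, ± standard error), without 1 library at a time, with other tests, scalings or filters, and with other pseudocounts. All values are above 0, and those of miR-450a reach from 0.45 with a pseudocount of 10 to 1.97 with edgeR.

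The size of the differences depended on the pseudocount for these scarce miRNAs, but not the direction. With a pseudocount of 10 the log2 differences were 0.91 (miR-542-3p), 0.73 (miR-450c-5p), 0.45 (miR-450a), 0.30 (miR-424-5p) and 0.27 (miR-450b-5p). With 0.1 they were 1.65, 1.84, 1.93, 1.45 and 0.44 in the same order. Without S02, the white library that stood apart, they were 1.66, 1.31, 1.31, 1.0 and 0.37.

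The seed relatives of miR-424-5p and miR-503 from other loci were together far more abundant. The list of these relatives holds miR-15a, miR-15b, miR-16, miR-195, miR-497, miR-103 and miR-107, and 0 of 7 passed an adjusted p of 0.05 in either direction (limma), the threshold used throughout. Over all 454 miRNAs 7.05% passed, 3.96% as higher in black skin and 3.08% as lower, so a count of 0 among 7 is near that background. At an unadjusted p under 0.05 there was 1, and edgeR and DESeq2 called 0. The list summed to 3206 to 4438 RPM in black libraries and 3691 to 5067 RPM in white libraries, with overlap. The median log2 difference was -0.22, against 0.00 for all 454. miR-103, a regulator of insulin sensitivity in mouse, was the most abundant at 2230 ± 267 RPM in black libraries and 2344 ± 435 RPM in white ones (SD, n = 3 each; log2 difference -0.06, limma adjusted p = 0.884). miR-16 and miR-195, which restrain the cell cycle, gave differences of -0.22 and -0.31 (limma adjusted p = 0.658 and 0.649). miR-107 (-0.56, adjusted p = 0.176) and miR-15b (-0.33, adjusted p = 0.390) had the lowest values, and miR-15a (0.12, adjusted p = 0.896) and miR-497 (0.16, adjusted p = 0.791) were above 0. Whether these relatives and the cluster differ in their response was not tested.

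Other miRNAs of chromosome X gave differences in both directions. Of 27 other miRNAs whose matched precursors all lie on X, 25 were fitted, and 1 passed as higher in black skin, 2 as lower and 22 did not pass (limma). Over all 454 fitted miRNAs 3.96% passed as higher and 3.08% as lower, so counts of 1 and 2 among 25 are near that background. At an unadjusted p under 0.05 there were 8 of the 25, and no share of all 454 at that level is given here. The median log2 difference of the 25 was -0.29, and 17 of them were below 0, where 50% of all 454 were above 0. miR-374a-5p was higher in black skin (985 ± 33.0 RPM in black and 507 ± 157 RPM in white; log2 difference 0.999, limma adjusted p = 0.0329). miR-224 (8.38 ± 5.29 RPM in black libraries and 41.3 ± 11.4 RPM in white; -2.28, adjusted p = 0.0171) and miR-221-3p, the miRNA named by the series (374 ± 46.0 RPM in black libraries and 912 ± 272 RPM in white; -1.24, adjusted p = 0.0318), were lower (SD, n = 3 each, limma). These calls depended on single libraries. Without S03, S05 or S06, 0 of these X miRNAs were called, without S07 1, without S04 2 and without S02 4.

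Among these X miRNAs, the precursors nearest to the cluster are those of miR-20b and miR-363, from a copy of the cell-cycle linked miR-17 cluster, 267527 and 267955 bases before MIR450B. Both were above 0 without passing the threshold. miR-363 averaged 99.7 ± 32.0 RPM in black libraries and 48.9 ± 15.9 RPM in white ones (SD, n = 3 each; log2 difference 1.01, limma adjusted p = 0.104). miR-20b averaged 6.48 ± 4.05 RPM in black libraries and 2.92 ± 1.17 RPM in white ones (SD, n = 3 each; 0.81, limma adjusted p = 0.321).

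**Figure D5:**
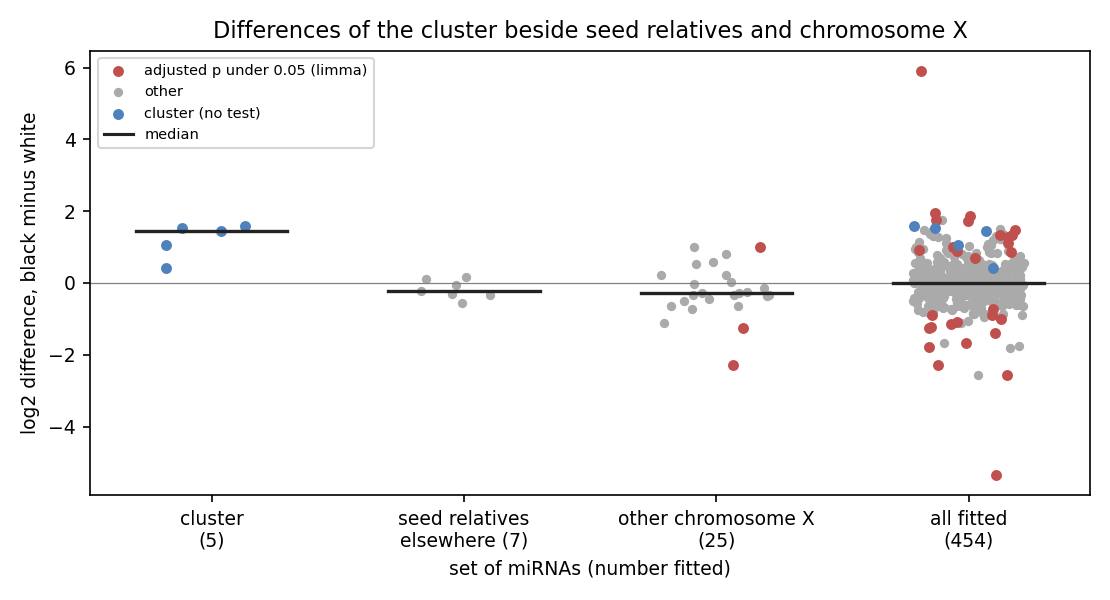
Log2 difference, black minus white, of each fitted miRNA in the cluster (5), seed relatives from other loci (7), other chromosome X miRNAs (25) and all fitted miRNAs (454), with red points past the threshold, blue points for the cluster, which is not tested, and a line at the median. Medians are 1.45, -0.22, -0.29 and 0.00, and the cluster's values were part of how it was chosen.

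Outside the cluster, the 5 named miRNAs whose log2(RPM + 1) was most like the log2 of the cluster's sum were found among 237 compared. They were miR-24-2-5p (Pearson's r = 0.97), miR-28-5p (0.94), miR-32 (0.93), miR-126-3p (0.93) and miR-143-3p (0.92), each over 6 libraries that share depth and the black and white split. These are likenesses over few libraries and are given as a description. Their log2 differences reached from 0.42 for miR-28-5p, which averaged 299 ± 12.9 RPM in black libraries and 223 ± 7.27 RPM in white ones, to 1.88 for miR-32, which averaged 162 ± 37.8 RPM in black libraries and 43.1 ± 8.35 RPM in white ones (SD, n = 3 each). The log2 ratio of the cluster's sum was 1.20.

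Markers of other cell types moved with the cluster in part, and their counts stand against the 3.96% of all miRNAs that were higher in black skin and the 3.08% that were lower. The vascular wall list (both arms of the endothelial miR-126 and of the smooth muscle miR-143 and miR-145) summed to 96227 to 119952 RPM in black libraries and 44365 to 58091 RPM in white libraries, without overlap, with 3 of 6 (miR-126-3p, miR-126-5p and miR-143-3p) higher in black skin past the threshold (limma), of which edgeR called 1 and DESeq2 2. The pigment cell list (miR-204, miR-221 and miR-222; miR-211 was not analysed here) summed to 722 to 959 RPM in black libraries and 1131 to 1995 RPM in white libraries, without overlap, with 1 of 4, miR-221-3p, lower in black skin (limma), 1 called by edgeR and 2 by DESeq2. The largest part of that sum in each library was miR-221-3p, at 334 to 424 RPM in black libraries and 615 to 1147 RPM in white ones. miR-204 of that list ran the other way, at 116 ± 24.6 RPM in black libraries and 64.5 ± 6.68 RPM in white ones (SD, n = 3 each), without overlap (log2 difference 0.82, limma adjusted p = 0.0804), and DESeq2 called it higher. Among 6 leukocyte miRNAs 1 was higher, miR-142-3p, and the sums overlapped (3121 to 5283 RPM in black libraries and 2437 to 4920 RPM in white libraries). Of that list edgeR called miR-142-3p alone, and DESeq2 called it higher and miR-342 lower. The other arm, miR-142-5p, did not pass (log2 difference 0.60, limma adjusted p = 0.433). Among 5 mesenchymal ones 1 was lower, miR-214 (1 called by edgeR and 1 by DESeq2), and the sums overlapped (25075 to 34133 RPM in black libraries and 29774 to 44259 RPM in white libraries). The last sums count miR-199a-3p and miR-199b-3p each, which have identical values in every library. Of these calls only that of miR-143-3p was kept in each of the 6 fits without 1 library. Those of miR-221-3p and miR-214 were lost in every such fit but the one without S02, that of miR-142-3p without S03, S05 or S06, that of miR-126-5p in every such fit but the one without S02, and that of miR-126-3p in every such fit but the one without S07. In the fit without S02 miR-145-3p was called higher as well.

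In the remaining lists none passed with limma and the sums overlapped. Erythroid miRNAs (3 fitted, 1 at an unadjusted p under 0.05, edgeR 0 and DESeq2 1) summed to 994 to 4298 RPM in black libraries and 1723 to 4914 RPM in white libraries. DESeq2 called miR-486, as lower in black skin. Striated muscle miRNAs (5 fitted, 1 at an unadjusted p under 0.05, 1 with edgeR and 1 with DESeq2) summed to 959 to 1604 RPM in black libraries and 678 to 2017 RPM in white libraries. Both edgeR and DESeq2 called miR-206, as lower in black skin (9.19 ± 4.98 RPM in black libraries and 77.8 ± 56.7 RPM in white ones, SD, n = 3 each). White library S02, at 12.6 RPM, lay inside the black range of miR-206. The median log2 difference of the 5 striated muscle miRNAs was 0.28. Epithelial and keratinocyte miRNAs (5 fitted, 1 at an unadjusted p under 0.05, 0 with edgeR and 0 with DESeq2) summed to 18739 to 25754 RPM in black libraries and 23475 to 34650 RPM in white libraries. Of the 10 names in that list, 5 were analysed here. The part of any of these cell types in the levels of the cluster was not tested.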

How the data were processed

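The authors deposited 1 table of miRNA values for the 6 libraries. The authors had scaled the reads of each library to RPM, as the deposited values show, since every column adds up to 1000000. The submitters' processing notes name Bowtie (version not given in the sources used here) and the build Sscrofa11.1, with no word on how either was used. The counter, miRNA database release and filters were not stated. All values (100%) were whole multiples of 1 read within a tolerance of 0.001, so reads were recovered.

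Groups were taken from the skin colour in the labels. limma 3.58.1 (R 4.3.3, intensity trend) was fitted to log2(RPM + 1), with Benjamini-Hochberg adjustment over the 454 miRNAs that edgeR 4.0.16's filterByExpr kept (minimum count 10, minimum total 15) and a threshold of 0.05. RPM take no count test as the main one, and edgeR and DESeq2 1.42.0 on the recovered reads called 30 and 53. The fit was tested on simulated data. Order and arm values were computed in Python 3.11.15 with scipy 1.17.1. Precursors were found by name for 6 members in the RefSeq gene table. The members, the lists and the rule for named miRNAs (all members, the seed relatives, the 5 most like the cluster, called X and marker miRNAs) were chosen with earlier results of these data known. All 6 columns were used.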

Additional observations from a re-analysis of the deposited data

How the results depend on the processing

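Over the alternatives run (edgeR, DESeq2, TMM and RLE factors, predicted miRNAs left out, pseudocounts of 0.1 and 10, no filter, and each library left out), the log2 differences of the 5 fitted products stayed above 0. The count of called miRNAs was 32 in the fit reported, 53 with DESeq2, 27 to 35 with the other settings, and 7 to 41 without 1 library. Higher in black were 18 of the 32, 13 of 30 with edgeR, and 16 of 35 with predicted miRNAs left out, where the median of all miRNAs was -0.14. Called miRNAs of chromosome X outside the cluster numbered 3, and 0 to 4 without 1 library. The log2 ratio of the cluster's sum was 1.20, and 1.03 to 1.34 without 1 library. The black minus white difference in the log2 arm ratio of miR-542 changed sign with a pseudocount of 0.1 (-0.92, against 0.92). This followed from the 0 reads of miR-542-5p in white skin. The same difference for miR-450c was 1.59, and 0.73 with a pseudocount of 10. The miR-503 ratio without each library was added after its values were seen. With 5 libraries the test of the order of levels cannot pass 0.05. No paired analysis was possible because the labels give no animal by which a black and a white library could be matched.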
